A study of Homo sapiens with 48 samples.

Results

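RPS19, RPSA, GNB2L1, PABPC1, YBX1 and BTF3 are the genes of the protein synthesis machinery in a pooled CRISPR knockout screen of human squamous carcinoma cells. They were picked by name, as 6 of the 327 targeted genes that each table holds, with their log fold changes in these tables already known. Their levels against the initial cells are therefore given as a description, and p-values of the members are given only for tumors against culture and for differences between lines, which come from the same value columns.

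Of the cells used, A-431 (A431 below) came from an epidermoid carcinoma, CAL27 from a carcinoma of the tongue and SCC-13 (SCC13 below) from one of the skin. All groups, the initial cells included, carried Cas9 from a pLEX_Cas9 lentivirus selected with blasticidin and a guide virus added at a multiplicity of 0.3 and selected with puromycin. The guide library had 334 target genes and 136 non-targeting guides according to the series design. Later samples were 2 cultures of A431 and 2 of CAL27 after 3 weeks, and 8 A431, 10 CAL27 and 16 SCC13 tumors after about 2 months in mouse flanks, each table with 2 initial samples. A431 and CAL27 tumors grew in SHO mice and SCC13 tumors in NOD.Cg-Prkdcscid Il2rgtm1Wjl/SzJ mice, so that for SCC13 the line and the host strain cannot be told apart. Tumors and cultures of a line also differ in duration and initial samples, which cannot be told apart from growth in mice. Tumors of the same mouse are not marked in the labels, and neither is whether the 2 cultures of a line had separate starts. P-values therefore reflect no more than the spread among these tumors or cultures, which may be technical. The tables hold guide abundance and not expression, so the identity of a line could not be checked by its markers.

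Protein synthesis starts when the small ribosomal subunit is brought to an mRNA, helped by proteins on the tail of that mRNA, and ends with a chain that is met by helper proteins as it leaves the large subunit. RPS19 and RPSA are proteins of the small subunit, and RPS19 is mutated in the anemia of Diamond and Blackfan. GNB2L1 is the older symbol of RACK1, a propeller-shaped scaffold on the head of the small subunit that also docks signalling kinases. PABPC1 coats the poly(A) tail and links it to the initiation factors at the cap, YBX1 is a cold-shock domain protein that packages mRNAs, and BTF3 is the beta subunit of the nascent polypeptide-associated complex at the ribosomal exit. Most genes of this machinery are needed by dividing cells of any tissue.

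Values are log fold changes of a gene's guides in 1 tumor or culture against the initial cells. The sources used here do not give the log base, and values are therefore called log units and are not turned into folds. From every column the median of its 327 genes was subtracted, so that 0 is the median gene of the library in that column. A negative value is read as a knockout below this median gene, and not always as one that became rarer. In SCC13 value column 3, for example, PABPC1 was -0.11 centred and 0.42 as deposited. Before centring, the median gene lay between -0.49 and -0.36 in the cultures and, with 0 at the non-targeting guides, between -0.55 and -0.074 in A431 tumors, -1.50 and -0.56 in CAL27 tumors and -2.67 and 0.53 in SCC13 tumors. The SD over genes was 0.50 to 0.59 in cultures, 0.42 to 1.34 in A431 tumors, 1.09 to 2.23 in CAL27 tumors and 1.89 to 2.87 in SCC13 tumors. In 101 of the 120 pairs of SCC13 tumors, in 6 of 45 pairs of CAL27 tumors and in the 1 pair of CAL27 cultures, a set of 4 or more genes had an identical difference (to 6 decimals) between the 2 columns. Members lay in such sets in 9 (GNB2L1) to 15 (RPSA and BTF3) of the 16 SCC13 tumors, in 3 (GNB2L1), 2 (YBX1) and 2 (BTF3) of the 10 CAL27 tumors, and in none of the CAL27 cultures. Whether these values sit at a lower limit of counting was not tested. Depth is unknown, since the tables hold no counts.

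Some members carry a known feature at the start of their mRNAs. Transcripts of ribosomal proteins and of many translation factors are known for a 5′ terminal oligopyrimidine tract, a C at the first base followed by a run of C or T, through which growth signals set their translation. RefSeq start sites on GRCh38.p14 were matched for 5 of the 6 genes. PABPC1 had no matched start and was not scored. Of the 5 matched genes, 4 began with a C followed by at least 4 further bases that were each C or T. Members were scored on their outermost listed start. Counting any listed start of a gene, which leaves the members at 4 of 5, the same was true of 21 of the 255 library genes with a matched start (8.24%). It was true of 4.07% of all 35116 listed starts of the table. The windows below are shown because the listed starts of the matched members differ in this tract. They run 5′ to 3′ from 10 bases before the start to the base 20 of the transcript, with the uninterrupted run from the first base in capitals.
RPS19: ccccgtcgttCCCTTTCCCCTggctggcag
RPSA: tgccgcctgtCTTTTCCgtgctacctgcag
GNB2L1: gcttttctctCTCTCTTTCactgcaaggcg
BTF3: cttccggcctCCCTTTagctgccatcttgc
YBX1: ctgtcccgccattctcgctagttcgatcgg
They lie at chr19:41860245-41860274 (plus strand) for RPS19, chr3:39406710-39406739 (plus strand) for RPSA, chr5:181243887-181243916 (minus strand) for GNB2L1, chr5:73498432-73498461 (plus strand) for BTF3 and chr1:42682408-42682437 (plus strand) for YBX1. The run was 11 bases long in RPS19, 9 in GNB2L1, 7 in RPSA and 6 in BTF3, and the 1 listed start of YBX1 begins with an A. Whether these cells use the listed starts was not tested. A run is a description of these letters, and the guides of the screen act on the gene and not on this tract.

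In culture all members lay below the median gene in both lines. The median of the 6 means was -0.73 log units in A431 culture and -1.22 in CAL27 culture, against 0.013 and 0.0018 for all genes. In A431 tumors it was -0.30, with BTF3 and RPS19 above 0. As deposited, with 0 at the non-targeting guides, all 6 means in A431 tumors were below 0, from -1.43 (GNB2L1) to -0.11 (BTF3). Centred, the median of the 6 means was -2.17 in CAL27 tumors and -2.68 in SCC13 tumors, with all 6 means below 0. Against the initial cells, limma called 4 of the 6 lower in A431 culture (11.3% of all genes), 6 in CAL27 culture (18.7%), 0 in A431 tumors (11.9%, with 107 of 327 genes at an unadjusted p under 0.05), 6 in CAL27 tumors (22%) and 4 in SCC13 tumors (23.9%). Nothing is read from these counts, since the genes were chosen with those values known.

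**Figure D1:**
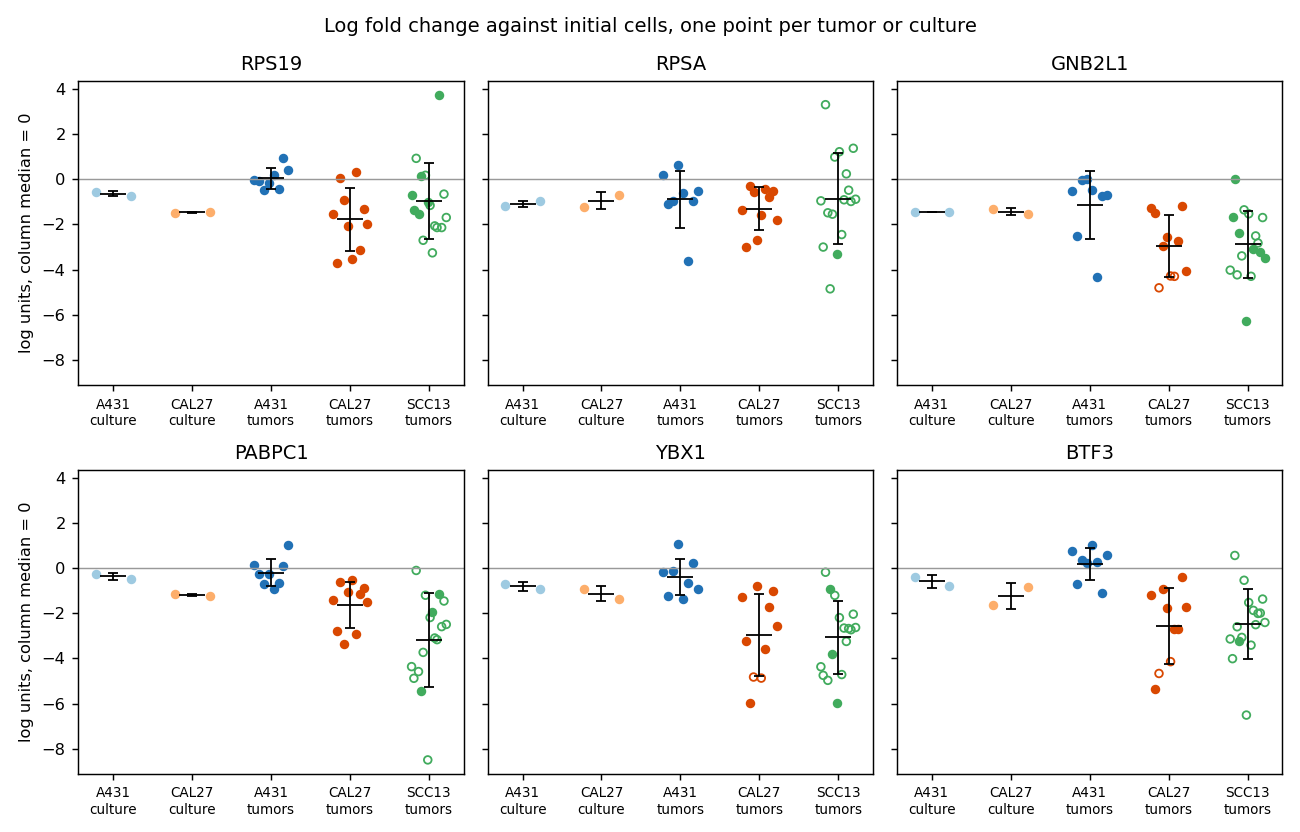
Log fold change against initial cells for each member (y axis, log units, column median at 0) in every culture and tumor of 5 groups (x axis). Bars are the mean ± SD, and open circles are values in a set of 4 or more genes that differ by exactly the same amount between 2 columns; cultures lie below 0 for each member, while A431 tumors lie around 0 for RPS19, PABPC1 and BTF3.

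RPS19, needed to mature the small subunit, stood lower in CAL27 culture than in A431 culture. The 2 cultures of A431 had -0.56 and -0.72 log units for RPS19, and those of CAL27 had -1.49 and -1.45. Both CAL27 cultures lay below both A431 cultures. In A431 tumors it ran from -0.47 through a median of -0.058 to 0.95, with 5 of 8 tumors below 0. In CAL27 tumors it ran from -3.71 through -1.76 to 0.31, with 8 of 10 below 0. The mean was 0.043 ± 0.47 (SD, n = 8) in A431 tumors, place 171 of 327 from the lowest, and -1.78 ± 1.39 (SD, n = 10) in CAL27 tumors, place 41. The A431 tumors thus lay on both sides of the median gene, while most CAL27 tumors lay below it. In SCC13 tumors RPS19 ran from -3.26 through -1.26 to 3.73 and was below 0 in 12 of 16, with a mean of -0.96 ± 1.67 (SD, n = 16). As deposited, RPS19 was below 0 in 7 of 8 A431 tumors (mean -0.23), 10 of 10 CAL27 tumors and 14 of 16 SCC13 tumors.

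RPSA, the other small-subunit protein, was the member that varied least from group to group. The 2 values of RPSA were -1.18 and -0.98 log units in A431 culture, against -1.22 and -0.68 in CAL27 culture. The cultures of the lines overlapped. In A431 tumors the range was -3.62 to 0.61 with a median of -0.79, and the lowest value, in value column 6, stood far from the next at -1.09. In CAL27 tumors the range was -3.00 to -0.29 with a median of -1.09, and all 10 lay below 0. In SCC13 tumors it ran from -4.85 through -0.93 to 3.30, and 11 of 16 lay below 0. The means of the 5 groups thus stayed between -1.30 (CAL27 tumors) and -0.86 (SCC13 tumors), and in SCC13 the SD of 2.02 (n = 16) exceeded the mean. In SCC13 tumors 15 of the 16 values of RPSA were in sets of genes with equal differences, among them the 3.30 in value column 3. Whether these values sit at a lower limit of counting was not tested.

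GNB2L1 had a low mean in every group. Both A431 cultures stood at -1.44 log units and the CAL27 cultures at -1.33 and -1.54, places 9 and 16 of 327 from the lowest mean. Cultures of the lines overlapped. In A431 tumors it ran from -4.34 through -0.59 to 0.028, with 7 of 8 below 0, and value columns 2 (-2.50) and 6 (-4.34) stood well below the others. In CAL27 tumors it ran from -4.80 through -2.83 to -1.17 and in SCC13 tumors from -6.25 through -2.96 to -0.0083, below 0 in all 10 and all 16. Of the members it was the only one whose mean was among the 25 lowest of 327 in each of the 5 tables, with places 9, 16, 22, 15 and 12 in A431 culture, CAL27 culture, A431 tumors, CAL27 tumors and SCC13 tumors. Its place within single columns averaged 11.5, 17.5, 82, 28 and 50 in that order, and limma did not call it in A431 tumors. Its means in tumors were -1.15 ± 1.51 (SD, n = 8) in A431, -2.96 ± 1.36 (SD, n = 10) in CAL27 and -2.87 ± 1.48 (SD, n = 16) in SCC13.

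PABPC1, which binds the mRNA tail, held place 67 of 327 from the lowest mean in A431 culture, 112 in A431 tumors and 5 in SCC13 tumors. The A431 cultures read -0.25 and -0.49 log units and the CAL27 cultures -1.16 and -1.24, without overlap. In A431 tumors it ran from -0.95 through -0.27 to 1.00 and 5 of 8 lay below 0. In CAL27 tumors it ran from -3.36 through -1.29 to -0.53, and in SCC13 tumors from -8.49 through -2.85 to -0.11. All tumors of these 2 lines lay below 0. The lowest value of any member in any column was the -8.49 of PABPC1 in value column 8 of SCC13. Its means were -0.20 ± 0.62 (SD, n = 8) in A431 tumors, -1.63 ± 1.02 (SD, n = 10) in CAL27 tumors and -3.19 ± 2.06 (SD, n = 16) in SCC13 tumors. As deposited, 7 of 8 A431 tumors lay below 0 for PABPC1 (mean -0.48).

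YBX1, which packages mRNAs, had -0.69 and -0.95 log units in culture for A431 and -0.91 and -1.37 for CAL27, which overlap. In A431 tumors it ran from -1.35 through -0.43 to 1.06, with 6 of 8 below 0. In CAL27 tumors it ran from -5.96 through -2.89 to -0.80 and in SCC13 tumors from -5.97 through -2.71 to -0.19, below 0 in every tumor of both lines. Of these, 7 CAL27 and 13 SCC13 tumors lay below every A431 tumor, and the rest overlapped them. Its means were -0.40 ± 0.81 (SD, n = 8) in A431, -2.98 ± 1.81 (SD, n = 10) in CAL27 and -3.07 ± 1.60 (SD, n = 16) in SCC13, places 78, 12 and 8. As deposited, 7 of 8 A431 tumors lay below 0 for YBX1 (mean -0.68).

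BTF3, of the nascent chain complex, was the member with the highest mean in A431 tumors. Culture values were -0.38 and -0.79 log units for A431 and -1.64 and -0.85 for CAL27, and both CAL27 cultures lay below both of A431. In A431 tumors it ran from -1.10 through 0.31 to 1.02, and 6 of 8 lay above 0. In CAL27 tumors it ran from -5.34 through -2.23 to -0.41, all 10 below 0, and in SCC13 tumors from -6.51 through -2.46 to 0.55, 15 of 16 below 0. BTF3 knockouts thus lay above the median gene in most A431 tumors and below it in nearly all tumors of the other lines. The means were 0.17 ± 0.72 (SD, n = 8) for A431, -2.56 ± 1.68 (SD, n = 10) for CAL27 and -2.48 ± 1.56 (SD, n = 16) for SCC13. As deposited, 3 of 8 A431 tumors lay below 0 for BTF3, with a mean of -0.11.

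**Figure D2:**
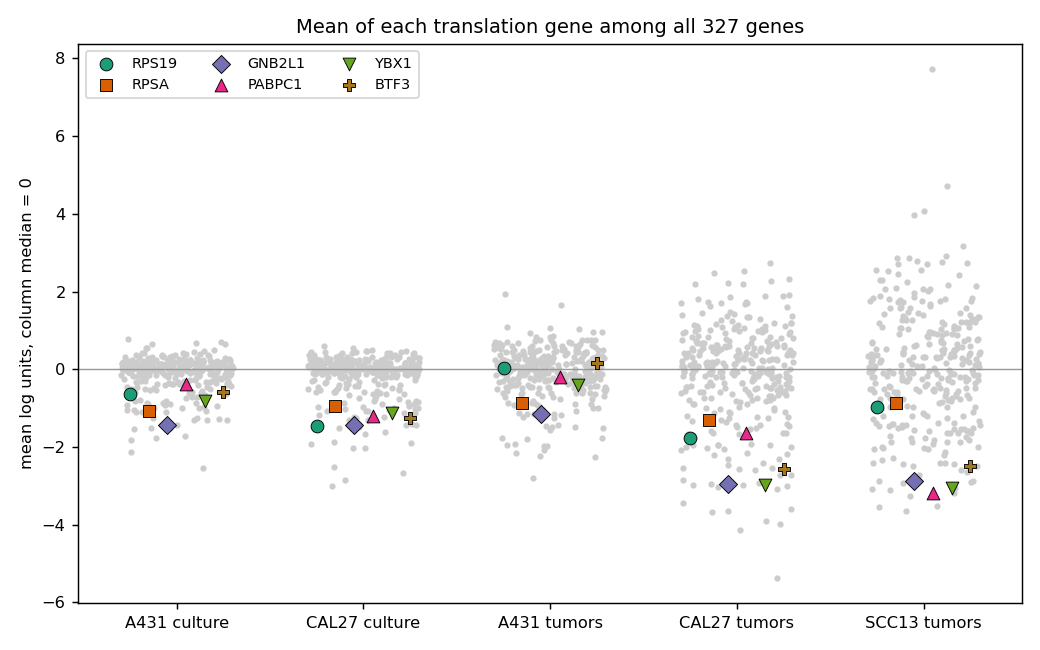
Mean log fold change (y axis, log units, column median at 0) of the 6 members as coloured symbols and of all 327 genes as grey points, for each of 5 groups (x axis). The members range from -1.44 to -0.37 in A431 culture, -1.47 to -0.95 in CAL27 culture, -1.15 to 0.17 in A431 tumors, -2.98 to -1.30 in CAL27 tumors and -3.19 to -0.86 in SCC13 tumors.

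By tumor, the 6 members were below the median gene together in 1 of 8 A431 tumors (value column 2), 8 of 10 CAL27 tumors and 9 of 16 SCC13 tumors. Over tumors, the lowest and highest median of the 6 members were -0.89 and 0.11 log units for A431, -3.83 and -0.96 for CAL27, and -6.11 and 0.27 for SCC13. The highest of the SCC13 values was in value column 3, where the median gene lay above the non-targeting guides, and the lowest was in value column 8. In value column 3, 136 of 327 genes lay in sets with equal differences, and in value column 8 there were 8. YBX1 was the lowest member in 2 A431, 3 CAL27 and 8 SCC13 tumors, and GNB2L1 in 3, 2 and 5. In 13 of the 16 SCC13 tumors YBX1 lay in sets with equal differences, so an order of members can repeat between columns. In SCC13 value columns 1 and 9, YBX1 lay just below PABPC1, at -4.372 against -4.366 and at -2.198 against -2.192. The SCC13 counts are therefore not counts of independent tumors. Without value column 3, limma called all 6 lower in SCC13 tumors (25.4% of all genes), and without value column 13, where RPS19 reached 3.73, it called RPS19 beside the 4 (24.2%). Without any other single SCC13 column, limma called the same 4 members, GNB2L1, PABPC1, YBX1 and BTF3. Without both value columns 3 and 13 the means were -1.43 for RPS19 and -1.18 for RPSA. That pair was chosen with the values known, since RPSA was highest in value column 3 (3.30) and RPS19 in value column 13. Lower means follow from that choice, and nothing is read from them.

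In A431, no member differed past the threshold between tumors and culture. All 6 differences of tumors minus culture were positive, from 0.17 log units (PABPC1, SE 0.46) to 0.75 (BTF3, SE 0.51). RPS19 was the 1 member whose tumors did not overlap the cultures, with 8 of 8 tumors above both cultures, as were 22 of the 327 genes (6.73%), and its difference was 0.69 (SE 0.41). In limma with 1 spread for both groups, 0 of 6 members and 0 of 327 genes passed (0%), with 20 genes at an unadjusted p under 0.05, and the members' adjusted p was 0.81 for RPS19, 0.89 for BTF3 and 0.985 for each other member. With an own spread per group 40 genes passed (12.2%), of which none was a member, and the adjusted p was 0.054 for RPS19 and 0.077 for BTF3.

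In CAL27, all 6 differences of tumors minus culture were negative, and whether any passed depended on how the spread was estimated. The difference was -1.85 log units for YBX1 (SE 1.10), -1.52 for GNB2L1 (SE 0.90) and -1.31 for BTF3 (SE 1.04), with 8, 8 and 7 of 10 tumors below the culture mean. RPS19 (-0.31, SE 0.92), RPSA (-0.35, SE 0.76) and PABPC1 (-0.43, SE 0.77) lay nearer to 0, with 6, 5 and 5 of 10 tumors below the culture mean. In limma with 1 spread 0 members and 0 of 327 genes passed (0%), with 30 genes at an unadjusted p under 0.05, and the adjusted p was 0.726 for YBX1 and GNB2L1. With an own spread per group YBX1, GNB2L1 and BTF3 passed (adjusted p = 0.0064, 0.0064 and 0.046), beside 15% of all genes called lower. When each column was divided by its SD over genes, all 6 differences turned positive, from 0.29 (YBX1) to 1.43 (RPS19) SD units, and none passed, beside 2.45% of all genes called higher. The direction in CAL27 therefore holds in log units and not relative to the spread of each column.

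The difference between lines in tumors minus culture was also tested. CAL27 minus A431 was -2.26 log units for YBX1 (SE 1.35), -2.06 for BTF3 (SE 1.27) and -1.81 for GNB2L1 (SE 1.33), and -0.99, -0.59 and -0.55 for RPS19, PABPC1 and RPSA. With 1 spread 0 members and 0 of 327 genes passed in limma (0%), with 9 genes at an unadjusted p under 0.05. With an own spread per group YBX1 (adjusted p = 0.0055), BTF3 (0.011) and GNB2L1 (0.024) passed, beside 10.1% of all genes called lower.

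**Figure D3:**
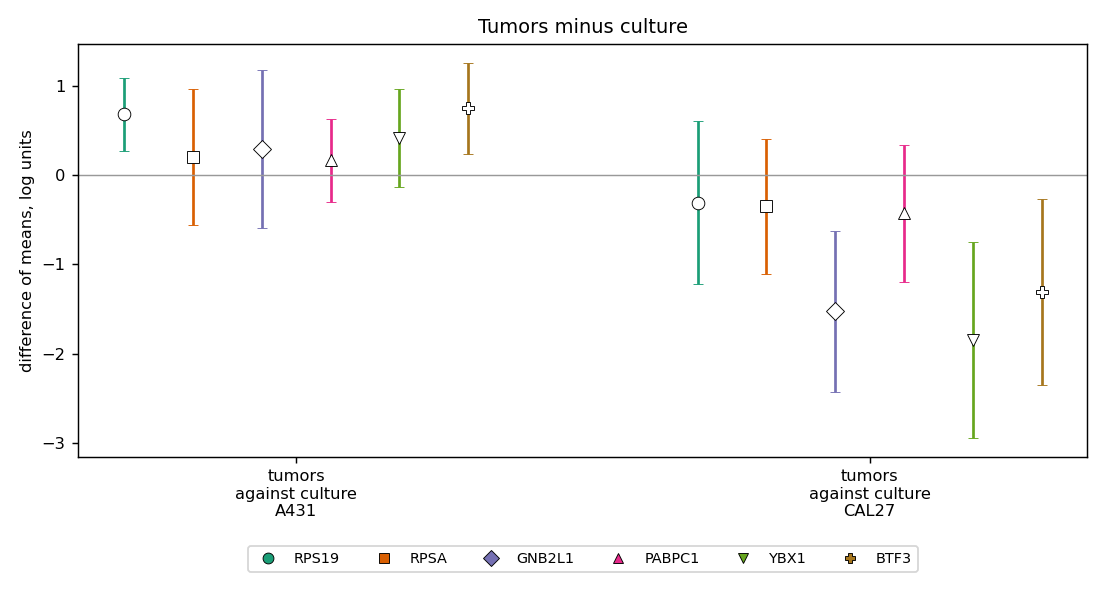
Difference of the mean in tumors minus the mean in culture (y axis, log units) for each member in A431 and CAL27 (x axis), with bars of 1 SE from the limma fit with 1 spread per gene. Open symbols did not pass; all 6 lie above 0 in A431 and below 0 in CAL27, where they turn positive when columns are divided by their SD.

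Between the cultures, RPS19 and PABPC1 were lower in CAL27 than in A431. RPS19 differed by -0.83 log units (SE 0.13, limma adjusted p = 0.033) and PABPC1 by -0.83 (SE 0.14, adjusted p = 0.037), while 2.75% of all genes were called lower. BTF3 (-0.66, SE 0.28) and YBX1 (-0.32, SE 0.19) did not pass, nor did RPSA (0.13, SE 0.21) and GNB2L1 (0.0071, SE 0.14). Without any 1 of the 4 cultures, or with columns divided by their SD, RPS19 and PABPC1 no longer passed, with an adjusted p of 0.14 to 0.27 and of 0.073. For 3 members, RPS19, PABPC1 and BTF3, the 2 CAL27 cultures lay below both A431 cultures, as did 32.7% of all genes.

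Between tumors, BTF3 and YBX1 were lower in both CAL27 and SCC13 than in A431, and PABPC1 and GNB2L1 were lower in SCC13 than in A431. BTF3 differed by -2.73 log units in CAL27 (SE 0.69, limma adjusted p = 0.0085) and by -2.65 in SCC13 (SE 0.63, adjusted p = 0.0020). YBX1 differed by -2.58 (SE 0.71, adjusted p = 0.017) and by -2.67 (SE 0.64, adjusted p = 0.0022). The call of YBX1 in CAL27 was lost without A431 value column 4 (adjusted p = 0.055) or CAL27 value column 3 (0.064). All 10 CAL27 tumors lay below the A431 mean for both genes, as did 15 of 16 SCC13 tumors. In CAL27 against A431, 3.06% of all genes were called lower, and BTF3 and YBX1 held places 6 and 8 of 327 from the most negative difference.

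PABPC1 had the 2nd most negative difference of all genes in SCC13 against A431 tumors, -2.99 log units (SE 0.65, limma adjusted p = 0.00071), with 15 of 16 tumors below every A431 tumor. GNB2L1 differed by -1.72 there (SE 0.63, adjusted p = 0.039), with 15 of 16 below the A431 mean. That call is the weakest of the 4: it was lost in 13 of 37 alternatives, among them leaving out A431 value column 1, 3, 4, 5, 7 or 8 (adjusted p of 0.071 to 0.10) or SCC13 value column 1, 4, 8, 10, 14 or 16 (0.051 to 0.076). The 37 include leaving out each of the 10 CAL27 tumors, which changes the shared spread but not this difference. Of all genes 10.7% were called lower in this comparison. RPS19 (-1.01, SE 0.62, adjusted p = 0.27) and RPSA (0.017, SE 0.66, adjusted p = 0.98) did not pass. Without centring, on the values as deposited, RPS19 passed at -2.35 (adjusted p = 0.0049), when 37% of all genes were called lower. RPS19 (-1.82, SE 0.68), GNB2L1 (-1.81, SE 0.69) and PABPC1 (-1.43, SE 0.71) were also below A431 in CAL27 tumors without passing (adjusted p = 0.12, 0.13 and 0.28), and with an own spread per group each of these 3 passed (0.0039, 0.017 and 0.0087), when 13.5% of all genes were called lower. GNB2L1 also passed there without A431 value column 6, its lowest (adjusted p = 0.047). As deposited, RPS19 (-2.36, adjusted p = 0.036) and GNB2L1 (-2.35, adjusted p = 0.040) passed in CAL27, beside 7.34% of all genes called lower.

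SCC13 and CAL27 tumors did not differ past the threshold for any member. PABPC1 came nearest, lower in SCC13 by a difference of -1.56 log units (SE 0.61, limma adjusted p = 0.060), and it passed without CAL27 value column 4 or SCC13 value column 3, 7, 13 or 15 (adjusted p of 0.026 to 0.047), and with an own spread per group (0.042, with 8.56% of all genes called lower). As deposited it passed at -2.36 (adjusted p = 0.0041), when 20.8% of all genes were called lower. The other differences were 0.81 for RPS19 (SE 0.58), 0.44 for RPSA (SE 0.62), 0.090 for GNB2L1 (SE 0.59), 0.075 for BTF3 (SE 0.59) and -0.086 for YBX1 (SE 0.60). With 0 of 6 members called, 7.95% of all genes were called lower and 105 of 327 had an unadjusted p under 0.05. Over the 3 lines together, the moderated F test called PABPC1 (adjusted p = 0.0011), BTF3 (0.0015) and YBX1 (0.0021), and 26.6% of all genes. GNB2L1 (0.056), RPS19 (0.099) and RPSA (0.85) did not pass.

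The lines also differ in the spread over genes of their tumors, given above, and the differences in log units were recomputed with each column divided by that SD. BTF3 then differed from A431 by -1.77 SD units in CAL27 (adjusted p = 0.00060) and by -1.38 in SCC13 (adjusted p = 0.0020). PABPC1 differed by -1.12 in SCC13 (adjusted p = 0.023) and YBX1 by -1.23 in CAL27 (adjusted p = 0.020). GNB2L1 (-0.25, adjusted p = 0.67) and YBX1 (-0.88, adjusted p = 0.063) no longer passed in SCC13 against A431. RPS19 in CAL27 tumors against A431, in turn, passed at -1.08 SD units (adjusted p = 0.030). Of all genes 6.12% were called lower on this scale in CAL27 and 5.81% in SCC13 against A431.

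**Figure D4:**
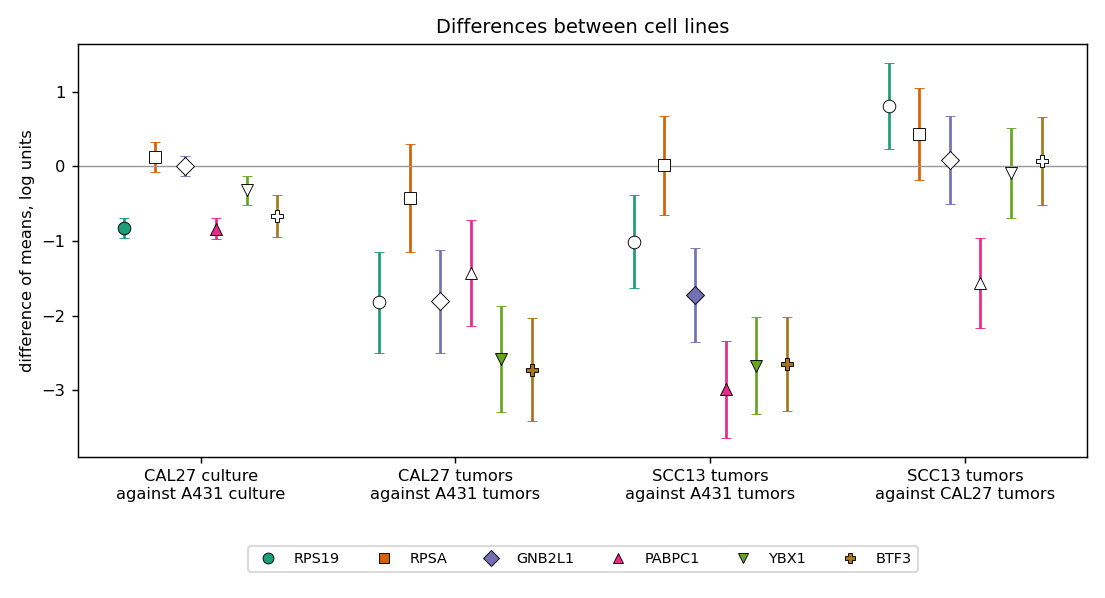
Difference of means between lines (y axis, log units) for each member in cultures and tumors (x axis), with bars of 1 SE from the limma fits. Filled symbols passed an adjusted p of 0.05: RPS19 and PABPC1 in cultures, YBX1 and BTF3 in CAL27 against A431 tumors, and GNB2L1, PABPC1, YBX1 and BTF3 in SCC13 against A431 tumors.

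The library holds few other genes of this machinery. Of 86 symbols listed for ribosomal proteins 3 were measured and of 49 translation factors 2, all of them members. Of 64 RNA-binding proteins 1 further gene was measured, ZFP36L2, which promotes decay of AU-rich mRNAs, and of 26 ribosome biogenesis genes 1, MYC, the transcription factor that drives ribosome production. These lists were also drawn up with earlier results known, so their levels are a description. MYC was called lower by limma in A431 culture (-0.87 ± 0.011 log units, SD, n = 2), CAL27 culture (-2.02 ± 0.29, SD, n = 2), CAL27 tumors (-2.48 ± 1.04, SD, n = 10) and SCC13 tumors (-1.28 ± 1.73, SD, n = 16), and not in A431 tumors (-0.92 ± 1.21, SD, n = 8). ZFP36L2 passed in none of the 5 tables, with means from -0.77 in A431 tumors to 0.67 in CAL27 tumors.

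Added after the gene names of the tables were seen were POLR1D, a subunit of RNA polymerases I and III, POLR3G, a subunit of RNA polymerase III, and GLTSCR2, a nucleolar factor of large-subunit assembly. POLR1D (0.024 and 0.0029 log units) and POLR3G (0.17 and 0.15) lay near the median in A431 and CAL27 cultures. Both were called lower in tumors of CAL27 (-1.21 and -1.49), where 22% of all genes were, and of SCC13 (-1.16 and -1.20), where 23.9% were, and neither in A431 tumors (0.21 and -0.44). GLTSCR2 passed in none of the 5 tables, with means from -0.57 to 0.36.

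Likeness was measured as the mean absolute difference between the 5 group means of 2 genes. For GNB2L1 the nearest were CFL1 (0.27 log units), EGFR (0.33) and MCM3 (0.35), against a median of 1.99 over all genes. For YBX1 they were FOSL1 (0.25), ARPC2 (0.28) and MCM7 (0.32), for BTF3 PTMA (0.22), SLC2A1 (0.24) and FOSL1 (0.26), and for PABPC1 FABP5 (0.33), ARPC2 (0.38) and JUNB (0.41). For RPSA they were TUBA1B (0.23), PTTG1 (0.31) and TFDP1 (0.42), and for RPS19 ZBTB7B (0.37), TUBA1C (0.44) and RRM2 (0.44). No member was among the 3 nearest genes of another. Among the members themselves the nearest pairs were GNB2L1 and YBX1 (0.38) and YBX1 and BTF3 (0.39), and the farthest was RPS19 and GNB2L1 (1.02).

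Each member also has named pseudogenes in the genome, of a kind that was not checked. By their names in GENCODE 44 (lifted to GRCh37), RPSA has 74 pseudogenes, more than any other library gene, BTF3 has 16, PABPC1 13, YBX1 10, RPS19 4 and GNB2L1 3. Of the 327 library genes 37 (11.3%) have 3 or more, and the median is 0. The guide sequences were not used here, so whether any guide also matches a pseudogene was not tested.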

How the data were processed

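Guide RNA abundance was measured by sequencing in 48 samples of 10 groups. The authors deposited 5 tables of log fold changes per gene, with no header line, 1 column per later sample and 2 to 16 columns per table. The submitters' processing notes name Bowtie2, without a version. The deposited values are relative to the non-targeting guides, whose row is 0 in all 38 columns; the sources used here give no log base, pseudocount, way of summing guides or genome build. Columns carry no replicate number and are named by their place. The 6 members and the gene lists were chosen with earlier results of these data known.

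Columns were centred on their median over 327 genes and fitted with limma 3.58.1 in R 4.3.3 (lmFit, eBayes), with the non-targeting row left out. Each table was fitted against 0, tumors with culture per line, the 2 cultures, the 3 lines' tumors together, and all 4 A431 and CAL27 tables for the difference of differences. P-values were adjusted over all 327 genes (Benjamini-Hochberg, threshold 0.05). These fits assume 1 log base and guide summary in all tables. The initial samples are shared by the columns of a table, and their error is in no test. Alternatives were the deposited values, columns divided by their SD, an own spread per group (each group fitted alone, variances combined with Satterthwaite degrees of freedom), the median of columns, and leaving out each column. Fits were tested on simulated data. Named genes are the members, the measured list genes, and the 3 genes nearest each member. RefSeq start windows came from a table on GRCh38.p14.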

Additional observations from a re-analysis of the deposited data

Results flagged for a closer look

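RPSA in A431 tumors had 1 value, -3.62 log units in value column 6, that stood farther from the next lowest than Dixon's 95% critical value for 8 values allows. It was the 1 of 12 groups of member values tested so, and chance gives about 1 in 20. GNB2L1 was also lowest in that column (-4.34). Several members differed between lines past the threshold of the limma fit. In culture, CAL27 against A431 differed by -0.83 log units for RPS19 and by -0.83 for PABPC1. Each of these calls was lost in 5 of 7 alternatives, and 2.75% of all genes were called lower. In tumors, CAL27 against A431 differed by -2.58 for YBX1, lost in 2 of 37 alternatives, and by -2.73 for BTF3. There 3.06% of all genes were called lower. SCC13 tumors against A431 tumors differed by -1.72 for GNB2L1, by -2.99 for PABPC1, by -2.67 for YBX1 and by -2.65 for BTF3. The call was lost in 13 of 37 alternatives for GNB2L1 and in 1 of 37 for YBX1. Of all genes 10.7% were called lower there. In each of these tumor comparisons the 37 include leaving out each tumor of the line not compared (16 SCC13 or 10 CAL27 tumors). That changes the shared spread but not the difference.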

How the results depend on the processing

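No paired analysis was possible because the value columns carry no replicate numbers. Leave-one-out fits against initial cells were not run for cultures, where 1 column leaves no spread. With the deposited values, limma called 2 members in A431 tumors (RPSA and GNB2L1), 6 in A431 culture, 6 in SCC13 tumors, 4 in CAL27 against A431 tumors, 5 in SCC13 against A431 tumors, 1 in SCC13 against CAL27 tumors and 5 over the 3 lines (F test), instead of 0, 4, 4, 2, 4, 0 and 3. With columns divided by their SD limma called 2 members instead of 0 in A431 tumors (RPSA and GNB2L1), 3 instead of 4 in A431 culture (without RPS19), 4 instead of 6 in CAL27 culture (without RPSA and BTF3), 0 instead of 2 between cultures, 3 instead of 2 in CAL27 against A431 tumors, 2 instead of 4 in SCC13 against A431 tumors and 4 instead of 3 over the 3 lines. Of all genes, F test aside, 81, 32, 59, 2, 31 and 44 were called in that order. The main fits called 65, 44, 77, 10, 11 and 69. With an own spread per group 3 members were called in CAL27 tumors against culture, 5 in CAL27 against A431 tumors, 1 in SCC13 against CAL27 tumors and 3 for the difference of differences, instead of 0, 2, 0 and 0. Of all genes, 107, 73, 64 and 56 were called in that order, against 0, 11, 58 and 0. Leaving out 1 column, the counts of members were 0 to 0 between cultures, 1 to 3 in CAL27 against A431 tumors, 0 to 1 in SCC13 against CAL27 tumors, 3 to 4 in SCC13 against A431 tumors, 3 to 4 over the 3 lines, 4 to 6 in SCC13 tumors, 6 to 6 in CAL27 tumors, and 0 in A431 tumors, in tumors against culture of each line and in the difference of differences. Over all genes these fits called 0 to 1 between cultures and 8 to 16 in CAL27 against A431 tumors. In SCC13 tumors they called 46 to 69 against CAL27 and 48 to 75 against A431. Against initial cells they called 143 to 157 in SCC13, 118 to 130 in CAL27 and 39 to 53 in A431 tumors. In tumors against culture they called 0 to 1 in A431, and 0 in CAL27 and in the difference of differences. The F test's share is given above for the main fit only.

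Directions that turned were those of differences that had not passed; the cause was not tested. With columns divided by their SD, CAL27 tumors against culture became 1.43 (RPS19), 0.80 (RPSA), 0.71 (GNB2L1), 1.09 (PABPC1), 0.29 (YBX1) and 0.70 (BTF3) SD units, RPSA in CAL27 against A431 tumors 0.065, YBX1 in SCC13 against CAL27 tumors 0.35, and the difference of differences 0.17 (RPS19) and 0.62 (PABPC1). As deposited, SCC13 against CAL27 tumors became -0.37 (RPSA), -0.72 (GNB2L1) and -0.73 (BTF3), RPSA in SCC13 against A431 tumors -1.33 and GNB2L1 between cultures -0.11. Leaving out 1 column moved differences across 0 in these ranges: A431 tumors against culture from -0.0076 to 0.60 (RPSA) and from -0.0047 to 0.28 (PABPC1), cultures from -0.14 to 0.40 (RPSA) and from -0.099 to 0.11 (GNB2L1), SCC13 against A431 tumors from -0.38 to 0.28 (RPSA), and SCC13 against CAL27 tumors from -0.12 to 0.31 (GNB2L1), -0.42 to 0.16 (YBX1) and -0.23 to 0.34 (BTF3). Centring changes how many of all genes are called: as deposited, 136, 293, 73, 164 and 220 genes were lower in A431 culture, CAL27 culture, A431, CAL27 and SCC13 tumors, against 37, 61, 39, 72 and 78. In A431 tumors against culture, CAL27 tumors against culture and CAL27 against A431 tumors an own spread per group called 40, 107 and 73 of all genes, against 0, 0 and 11.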
